A study of Mus musculus with 6 samples.

Results

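The interferon-inducible p200 genes (also called Ifi200 or PYHIN genes) lie side by side on mouse chromosome 1. They were taken as every non-control array probe in that region that carries a p200 family name. This gave 19 probes for 9 genes, out of 41174 probes with 28632 gene names on the array, spanning chr1:175395269-175956806 (mm9). These genes are Aim2, Ifi206 (EG240921 in the files), Ifi209 (Pyhin1), Ifi207 (AI607873), Ifi204, Ifi211 (Mnda), Ifi203, Ifi202b and Ifi205. The family was selected on its log2 ratio of VIP-treated over untreated cells, so those ratios are given below as a description and without a test. The tested values are the levels across replicates, which did not enter the choice, and the other genes around the family.

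The cells were resting CD4 T cells taken from spleens of C57BL/6J animals, with or without vasoactive intestinal peptide (VIP). Males and females aged 6 to 32 weeks served as donors, 5 to 10 spleens were pooled for each sample, and CD4 cells were selected with magnetic beads. The 6 biological replicates were each hybridized to a single 2-colour array, both treatments together, with VIP in Cy5 on replicates 1, 3 and 5 and in Cy3 on replicates 2, 4 and 6. Neither dose nor exposure time is given in the sources used here.

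VIP is a neuropeptide whose receptors on lymphocytes couple to Gs proteins and cyclic AMP. The p200 proteins share a HIN domain, which binds DNA, and most also carry a pyrin domain, through which they bind other proteins. Their genes are induced by type I and type II interferons through JAK and STAT signalling. Aim2 starts an inflammasome when it meets DNA in the cytosol, and Ifi204, the best known mouse relative of human IFI16, takes part in DNA sensing and in growth control in the nucleus.

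Of the 9 genes, 8 had at least 1 probe that passed the filter on signal, with 17 of the 19 probes kept. Ifi202b, which encodes a HIN protein without a pyrin domain that restrains Aim2, was well above background on 2 arrays with VIP and 1 untreated and was not kept. The same held for 1 of the 2 Ifi205 probes, which was not well above background on any array. The kept probes have lower signal in Aim2, well above background on 3 arrays with VIP and 2 untreated, and in Ifi205, on 5 and 5. These counts are for arrays out of 6 in each treatment.

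Probes of Ifi203 and Ifi204 are printed here because the ratio depended on the probe within a gene. The only probe of Ifi211 is added, and a probe of Ifi206 because it shares a run with one of Ifi204. A further Ifi203 probe, A_52_P134762, is not printed. All printed probes are 60 bases long, in lower case, from the array files. Capitals mark the only run of 15 or more bases that probes of 2 different p200 genes share, which is 18 bases long and joins Ifi204 to Ifi206. Positions are mm9, and all of these probes are on the minus strand. The Ifi204 probes, in the order printed, are at chr1:175679365-175679424, chr1:175679425-175679484 and chr1:175686019-175686078. The Ifi211 probe is at chr1:175829535-175829594, the Ifi203 probes at chr1:175850608-175850667 and chr1:175867268-175867327, and the Ifi206 probe at chr1:175401530-175401589. No exon annotation of this build was used, so exon or UTR is not stated.
Ifi204 probe A_51_P408343: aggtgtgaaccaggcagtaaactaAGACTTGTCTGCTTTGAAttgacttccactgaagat
Ifi204 probe A_51_P408346: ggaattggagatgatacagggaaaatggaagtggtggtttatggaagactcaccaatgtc
Ifi204 probe A_52_P83479: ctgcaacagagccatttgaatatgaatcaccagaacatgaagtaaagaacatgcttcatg
Ifi211 probe A_51_P377620: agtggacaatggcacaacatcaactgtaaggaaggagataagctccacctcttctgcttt
Ifi203 probe A_51_P237856: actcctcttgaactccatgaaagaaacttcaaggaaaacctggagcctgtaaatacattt
Ifi203 probe A_52_P263800: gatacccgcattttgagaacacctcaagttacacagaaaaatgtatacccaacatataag
Ifi206 probe A_52_P326187: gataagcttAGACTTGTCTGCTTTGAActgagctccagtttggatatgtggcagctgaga

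Aligned on the shared run, the Ifi204 and Ifi206 probes match at 34 of 45 bases. How far RNA of one gene binds the other's probe was not tested.

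Ifi203, Ifi204 and Ifi211, neighbours in the distal part of the cluster, carried the lower values with VIP, while the other 5 kept genes stayed within 0.17 of 0 on the log2 scale. The Ifi203 level (normalized log2 channel signal of its brightest probe) ran from 10.51 to 12.30 with VIP, with a median of 11.89. In untreated cells it ran from 10.93 to 12.83 with a median of 12.40. The ranges overlap, and replicate 4 was the lowest in both treatments, yet within each array the VIP sample was the lower. The log2 ratio on the 6 arrays ran from -0.91 on replicate 3 to -0.20 on replicate 2, with a median of -0.51, and its fitted value was -0.53 ± 0.069 (SE, n = 6), or 1.45-fold lower.

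Ifi204 showed the same arrangement. Its level ran from 10.13 to 12.01 with VIP (median 11.36) and from 10.66 to 12.45 untreated (median 11.86), again with overlapping ranges. Its ratio on single arrays ran from -0.81 on replicate 3 to -0.21 on replicate 1, with a median of -0.50. The fitted log2 ratio was -0.52 ± 0.068 (SE, n = 6), or 1.43-fold lower.

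Ifi211, listed in the files as Mnda, is a pyrin and HIN domain gene next to Ifi203. It was measured on 5 arrays, since its spot was marked as an outlier on replicate 2 and left out. The level ran from 12.43 to 13.68 with VIP (median 13.22) and from 12.75 to 14.30 untreated (median 13.63). All 5 ratios were negative, from -0.98 on replicate 3 to -0.17 on replicate 6, and the fitted value was -0.45 ± 0.077 (SE, n = 5).

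By limma with Benjamini-Hochberg adjustment over all 19225 genes tested, 263 genes (1.37%) were called lower with VIP, 330 (1.72%) were called higher and 593 (3.08%) were called in either direction. Of the 8 kept p200 genes, 3 were called lower (Ifi203, Ifi204 and Ifi211) and none higher, a count that the selection of the family already fixes and from which nothing is read. These calls depended on the processing: Ifi203 and Ifi204 were called under 16 of 19 alternatives and Ifi211 under 10 of the 15 that give a value. With processed signals, with the deposited value table and with unpaired channels none of the 3 was called. Ordered from the most negative ratio, they stood at ranks 23, 24 and 35. The median over the 8 genes was -0.13, and over all genes it was -0.0047.

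**Figure D1:**
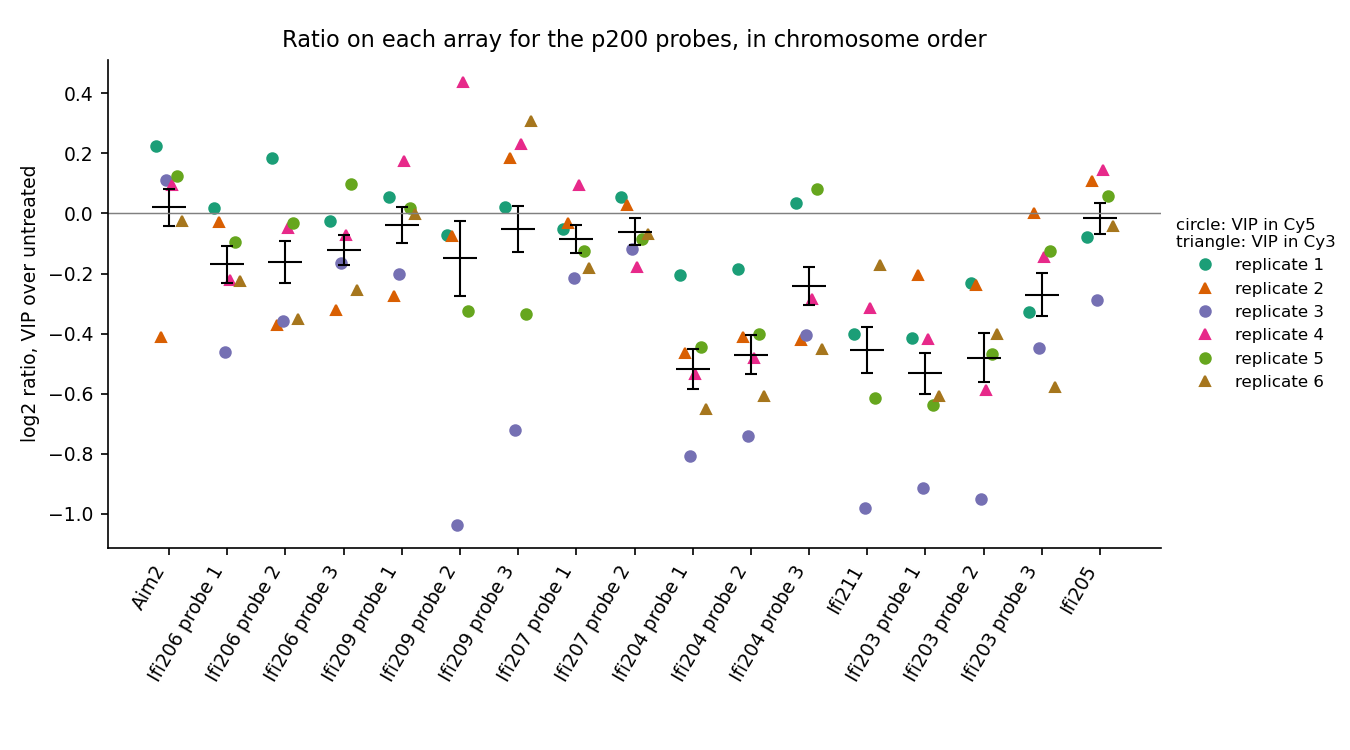
Log2 ratio of VIP over untreated on each array (points, replicates 1 to 6, circles with VIP in Cy5 and triangles with VIP in Cy3) for the 17 kept p200 probes in chromosome order, with the fitted ratio and its SE in black. All 6 points of the first Ifi203 and first Ifi204 probes lie below 0, and replicate 3 is the lowest of them for both.

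The Ifi204 probes did not give 1 value. The abutting pair at the lower coordinates gave -0.52 and -0.47 and moved together on every array, differing by 0.047 ± 0.015 (SD over 6 arrays). The third, at higher coordinates on the gene's 5′ side, gave -0.24 ± 0.063 (SE). It was as bright, with a mean log2 intensity of 11.05 against 11.48 and 10.82. The first probe was lower than the third on 6 of 6 arrays, by 0.28 ± 0.11 (SD) on average.

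The Ifi203 probes differed in the same direction, but less evenly. The probes at the lower coordinates gave -0.53 and -0.48 ± 0.081 (SE), and the one at the highest coordinates gave -0.27 ± 0.072 (SE). Here the third probe was also dimmer, at a mean log2 intensity of 7.87 against 11.95 for the first. The first was lower than the third on 6 of 6 arrays, by 0.26 ± 0.17 (SD). The second was lower than the third on 4 of 6, by 0.21 ± 0.28 (SD). Between the first and second the difference was 0.053 ± 0.14 (SD), with the first lower on 3 of 6. Both genes are on the minus strand, so in each the probe nearest the 5′ side had the smallest ratio. Whether different transcripts bind these probes was not tested.

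Ifi206, at the proximal end of the cluster, had 3 bright probes that gave -0.17 ± 0.062, -0.16 ± 0.069 and -0.12 ± 0.050 (SE, n = 6). The first of these probes shares the 18-base run with Ifi204. Over the 6 arrays its dye-adjusted ratio had r = 0.955 with the first Ifi204 probe, against 0.811 and 0.405 for the other Ifi206 probes. With the first Ifi203 probe, which shares no such run, it had r = 0.918. The part of Ifi204 RNA in its signal was not tested. The ratio of the first Ifi206 probe ran from -0.46 on replicate 3 to 0.019 on replicate 1.

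Ifi209, the mouse relative of human PYHIN1 (IFIX), was the brightest of the family. Its 3 probes gave -0.039 ± 0.061, -0.15 ± 0.12 (5 arrays) and -0.052 ± 0.077 (SE). The arrays disagreed in sign, and for the brightest of these probes the ratio ran from -0.72 on replicate 3 to 0.31 on replicate 6. Ifi207 was much dimmer and gave -0.085 ± 0.048 and -0.061 ± 0.045 (SE). All probes of Ifi209 and Ifi207 were designed across longer genomic spans, of 1214 to 5176 bases.

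Aim2 and Ifi205, both near background, had no shift beyond their errors. The Aim2 level ran from 6.10 to 6.63 with VIP and from 6.05 to 6.88 untreated, and its log2 ratio was 0.020 ± 0.061 (SE, n = 6). Ifi205, also known as D3, ran from 6.29 to 7.24 with VIP and from 6.15 to 7.18 untreated, with a log2 ratio of -0.016 ± 0.052. At such signals a change can be understated, so these values are limits of the measurement as much as of the genes. Over all 19 probes, the ranges of the VIP-treated and untreated levels overlapped for every probe.

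**Figure D2:**
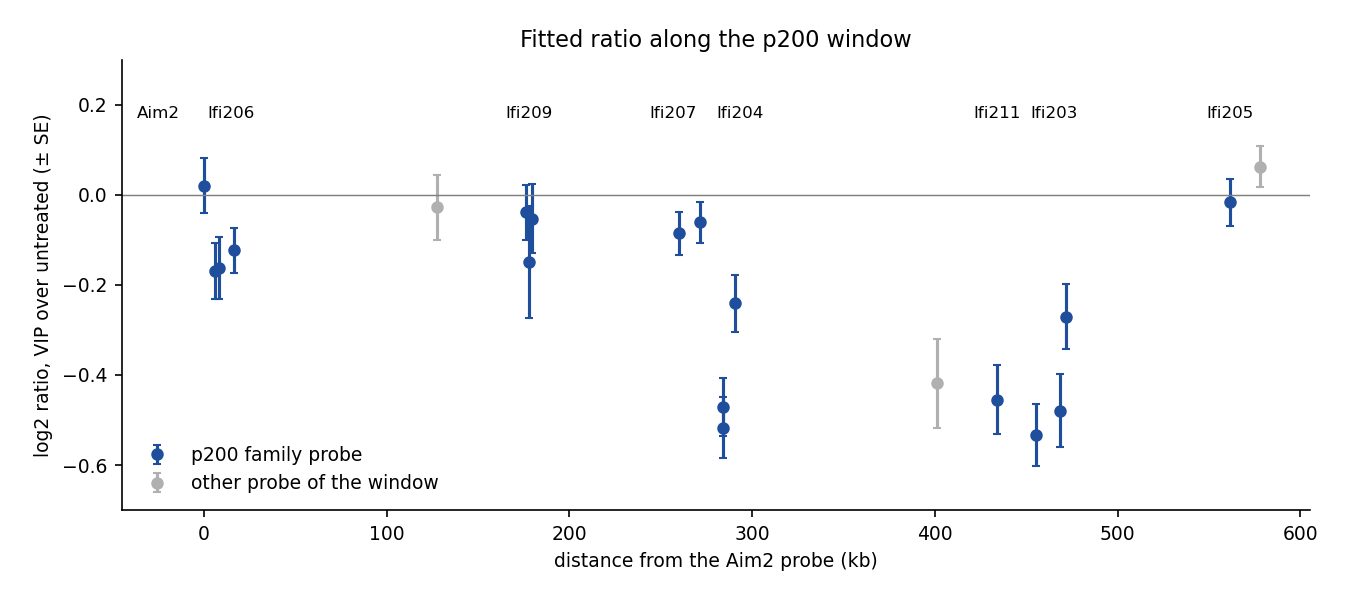
Fitted log2 ratio of VIP over untreated (± SE) of each kept probe of the window against its distance in kb from the Aim2 probe, with p200 probes in blue and other probes in grey. The low values lie between the first Ifi204 probe at 284 kb and the last Ifi203 probe at 472 kb. The Ifi205 probe at 561 kb gave a value near 0, but its signal was near background.

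The 7 lowest probes therefore fell in a stretch of 188 kb, chr1:175679365-175867327 (mm9), out of the 562 kb that the family's probes span. Where the lower values end is not settled, since the flanking probes were dim. Mean log2 intensity was 7.85 and 6.60 for the Ifi207 probes and 6.66 for the kept Ifi205 probe, and Ifi202b was not kept. A further feature in that stretch, the expressed sequence tag BB200491 at chr1:175796466-175796525 between the Ifi204 and Ifi211 probes, was lower with VIP on 6 of 6 arrays. Its log2 ratio was -0.42 ± 0.10 (SE, n = 6), and its adjusted p was 0.0524 by limma. Its adjusted p was under 0.05 with slides as a fixed block (0.0229), with slides as a random block (0.0485) and with no filter on signal (0.0455). Under the other alternatives it was above, up to 1.00, and from 0.0523 to 0.149 when a replicate was left out. The dye-adjusted ratio of BB200491 had r = 0.898 with the first Ifi204 probe and 0.893 with the first Ifi203 probe. Such values were not particular to it. LOC545383, described below, had 0.867 and 0.849 with the same probes. The Ifi205 probe that was not well above background on any array had 0.972 and 0.860. RefSeq lists the p200 entries Ifi203-ps and Mndal, neither with a named probe here, between Ifi204 and Ifi211. Whether BB200491 belongs to either was not tested. LOC545383, at chr1:175522791-175522850, has a description that names a clone RefSeq gives as a synonym of Ifi213, but carries no family name and was not counted. It gave -0.028 ± 0.073 (SE). The olfactory receptor gene Olfr433 beyond Ifi205 gave 0.063 ± 0.045 (SE, adjusted p = 0.542), and its neighbour Olfr432 was not kept.

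The ratios of the lowest genes were present within each pair of arrays that shared a slide, where dye orientation is balanced. Ifi203 stood at -0.31, -0.67 and -0.62 on the 3 slides, and Ifi204 at -0.33, -0.67 and -0.55. Ifi211 stood at -0.65 and -0.39 on the 2 slides that give a value. Slide 1 thus had the smallest and slide 2 the largest differences for both Ifi203 and Ifi204.

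On 2 arrays the paired samples differed in Xist, which is expressed from the inactive X chromosome of females. Its log2 ratio was -6.12 on replicate 3 and 2.03 on replicate 6, and between -0.083 and 0.34 on the other 4 arrays. On those 4 arrays alone, Ifi203 stood at -0.42 and Ifi204 at -0.41, while Ifi206 moved from -0.17 to -0.082. Ifi211 had too few of these arrays for a value. BB200491 moved from -0.42 to -0.21 there. The Y-linked genes Ddx3y and Eif2s3y went the other way from Xist. They stood at 2.04 and 1.95 on replicate 3 and at -3.96 and -4.80 on replicate 6. Replicate 3 also had the lowest ratio for BB200491, Ifi211 and the first probes of Ifi203, Ifi204 and Ifi206. The part of donor sex in these ratios was not tested.

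The level of most of the family varied widely between replicates. Averaged over both channels, Ifi203 ran from 10.72 on replicate 4 to 12.51 on replicate 5, a range of 1.79 on the log2 scale, or 3.36 times the size of its VIP ratio. Ifi206 ran from 10.47 to 12.43 and Ifi204 from 10.40 to 12.23. The median range over all 17202 genes measured on 6 arrays was 0.55. Only 0.802% of these genes had a larger range than Ifi206, 1.07% than Ifi204 and 1.21% than Ifi203. For Ifi207, Ifi209 and Ifi205 the share was 5.67%, 7.14% and 10.4%, and for Aim2, near background, it was 47.7%. Ifi211 was not measured on all arrays. Of the 8 kept genes, 6 were lowest on replicate 4 and the other 2, Ifi209 and Aim2, on replicate 6, while 6 were highest on replicate 5.

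**Figure D3:**
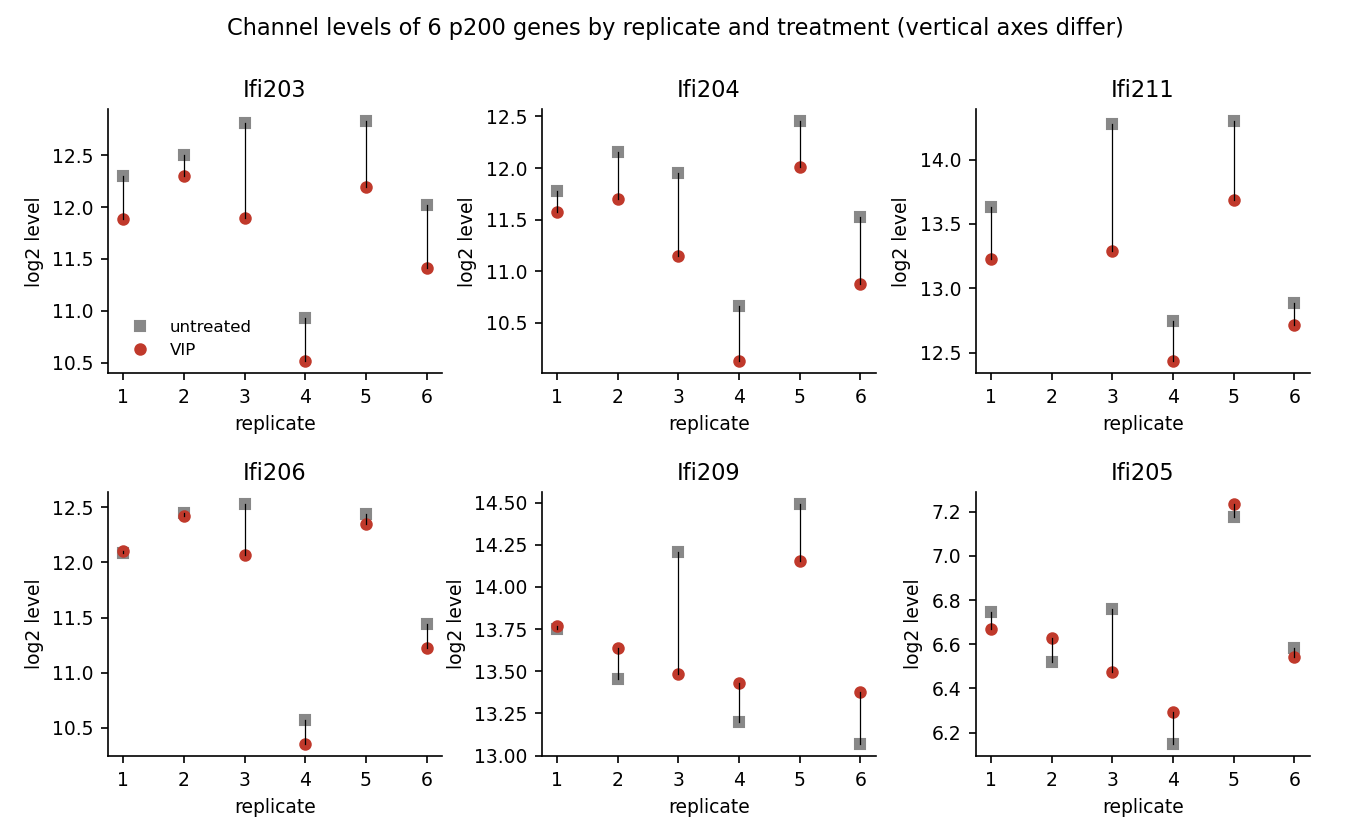
Normalized log2 channel level of 6 p200 genes (brightest probe) in untreated (grey squares) and VIP-treated (red circles) samples of each replicate, joined by a line, with a separate vertical scale for each gene. Replicate 4 is the lowest pair for Ifi203, Ifi204, Ifi211, Ifi206 and Ifi205, in both treatments for each.

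Other interferon-stimulated genes followed the same order of replicates. Over the 5 p200 genes measured on all arrays and clear of background (Ifi203, Ifi204, Ifi206, Ifi207 and Ifi209), the mean level was 11.57, 11.64, 11.57, 10.43, 11.98 and 10.99 on replicates 1 to 6. Over 49 other interferon-stimulated genes measured on all arrays, it was 12.04, 12.22, 12.19, 10.84, 12.58 and 11.79. Replicate 4 was lowest and replicate 5 highest in both sets.

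Across the 6 replicates the 2 means had a Pearson r of 0.976 (exact 2-sided permutation p = 0.00139, adjusted p = 0.00694 over the 5 lists compared) and a Spearman rho of 1 (exact permutation p = 0.00278, the smallest it can give with 6 replicates, adjusted p = 0.0139). Without replicates 4 and 5, the farthest from the median, r was 0.935. Receptors and signal transducers of interferon had r = 0.963 (exact permutation p = 0.0153, adjusted p = 0.0382) with rho = 0.714 (exact permutation p = 0.136, adjusted p = 0.340). That relation rested on replicates 4 and 6, and r without them was 0.441. The permutations do not take the slides into account. This test of levels was not among those planned, and the adjustment covers the 5 lists compared but not the choice of those lists. Within slides 1, 2 and 3, the p200 mean of the lower-numbered replicate minus that of the other was -0.076, 1.15 and 0.98, and the mean of the interferon-stimulated genes differed by -0.18, 1.35 and 0.79. Both sets thus differed in the same direction on each of the 3 slides.

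Of the lists of cell type markers, 3 were compared in this way, and none passed 0.05 in the permutation test. CD4 T cell markers varied little, from 13.08 to 13.30 in mean level, and had r = -0.713 with the p200 mean (exact permutation p = 0.117, adjusted p = 0.194), rho = -0.429 and, without replicates 1 and 4, r = -0.316. B cell markers had r = 0.201 (exact permutation p = 0.692, adjusted p = 0.692) and rho = 0.257, and without replicates 5 and 6 r turned to -0.875. Macrophage and monocyte markers had r = 0.473 (exact permutation p = 0.346, adjusted p = 0.432) and rho = 0.371, and without replicates 2 and 5 r was 0.820. With 4 replicates left, these last values are descriptions. Replicate 4 also had the lowest median signals of the 6 arrays, 83.6 in Cy3 and 148 in Cy5, and the smallest share of spots well above background. The part of signal in the level of replicate 4 was not tested.

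**Figure D4:**
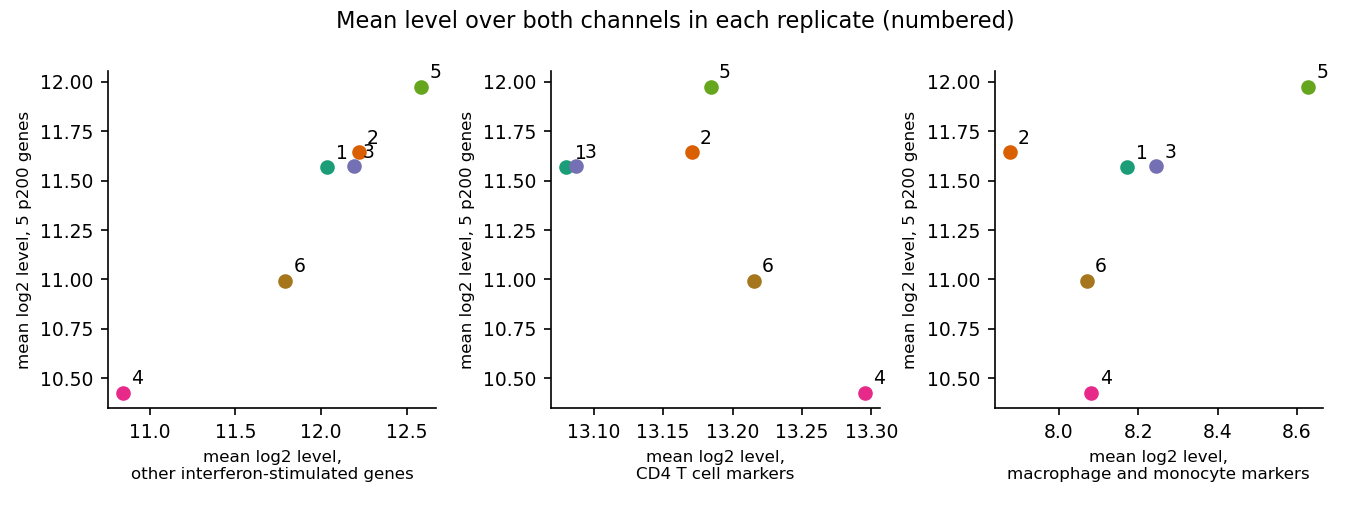
Mean log2 level of 5 p200 genes (vertical axis) against the mean log2 level of other interferon-stimulated genes, CD4 T cell markers, and macrophage and monocyte markers (horizontal axes, separate scales), with 1 numbered point for each of the 6 replicates. With interferon-stimulated genes the points rise together (r = 0.976), and with CD4 T cell markers replicate 4 is low on the vertical and high on the horizontal axis.

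The labelled cells were checked against their markers. All 12 CD4 T cell markers on the array, Cd4, Cd3e and Lck among them, were well above background in all 12 channels, and of the 11 tested none was called. The median level of Cd3d, a subunit of the T cell receptor complex, was 15.7 with VIP and 15.8 untreated. Markers of other spleen cells were present too: 14 of 17 macrophage and monocyte markers and 11 of 12 B cell markers were well above background in all 12 channels. Lyz2, a lysozyme gene of myeloid cells, had a median level of 14.7 with VIP and 14.5 untreated. None of the 17 macrophage and 11 B cell markers tested was called, with medians of -0.0026 and -0.074. The mean level of the macrophage list ran from 8.11 to 9.07 with VIP and from 8.22 to 9.04 untreated, and the B cell list from 8.62 to 9.36 and from 8.79 to 9.40. Plasma cell markers had negative ratios in 6 of 6 genes, with a median of -0.094 and -0.18 ± 0.059 (SE) for the immunoglobulin joining chain gene Jchain, and their mean level ran from 8.87 to 9.32 with VIP and from 8.99 to 9.44 untreated. CD8 T cell markers were well above background in all 12 channels for 5 of 5 genes and had a median of 0.053, with no negative ratio. None of these 11 genes was called. Since p200 genes are also expressed in myeloid and B cells, the part of those cells in the values above, and that of plasma and CD8 cells, was not tested. In such bulk samples, fewer cells of a type and less RNA per cell cannot be told apart.

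Upstream of the family, none of the 21 genes of interferon receptors and signal transducers was called by limma, and 2 (9.52%) had an unadjusted p under 0.05, against 3212 of all 19225 genes (16.7%). Their median was -0.0076. Socs3, an inhibitor of JAK signalling, stood at 0.12 ± 0.043 (SE, adjusted p = 0.165 by limma) and the kinase gene Jak2 at 0.12 ± 0.047 (adjusted p = 0.225), the lowest p-values of the list. The receptor genes Ifnar1 and Ifnar2 gave 0.055 and 0.098, and the transducer Stat2 gave -0.043.

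Among 60 other interferon-stimulated genes, 2 were called lower and none higher, beside 1.37% called lower and 1.72% called higher over all 19225 genes. Epsti1, an epithelial-stromal interaction gene, fell by 0.22 (± 0.045 SE, adjusted p = 0.0262 by limma, lower on 5 of 6 arrays). Ifit2, which encodes an antiviral tetratricopeptide repeat protein, fell by 0.21 (± 0.043 SE, adjusted p = 0.0276 by limma, lower on 6 of 6 arrays). Leaving out a replicate ended the Ifit2 call each time, with adjusted p between 0.0544 and 0.103. For Epsti1 it ended the call for replicates 1 to 5, with adjusted p between 0.0573 and 0.103, but not for replicate 6 (0.0317). Over all 19 alternatives Epsti1 was called under 7 and Ifit2 under 4, and adjusted p reached 1.00 with unpaired channels.

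Of these 60 genes, 47 had a negative ratio, and 16 (26.7%) had an unadjusted p under 0.05, against 16.7% of all genes. The median was -0.092 against -0.0047 over all genes. It ran from -0.16 to -0.035 when a replicate was left out, and it was -0.045, -0.17 and -0.077 within the 3 slides and -0.023 on the 4 arrays with matched Xist. The ratios of the list ran from -0.24 for the GTPase gene Gbp6 to 0.12.

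**Figure D5:**
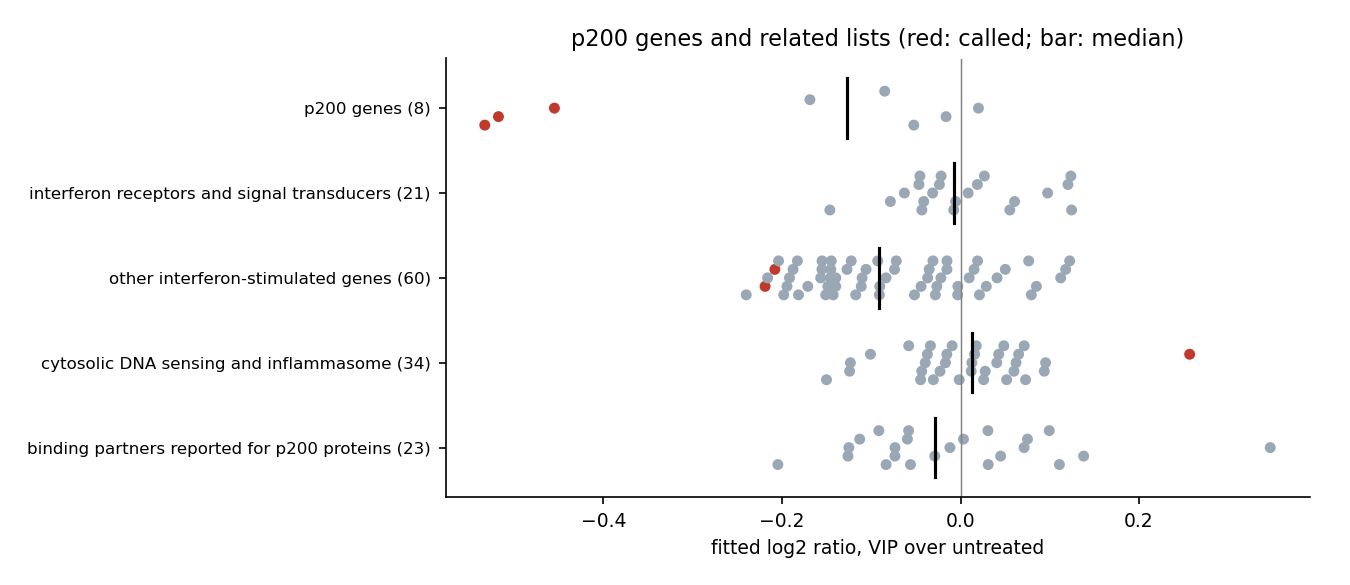
Fitted log2 ratio of VIP over untreated for each tested gene of 5 lists (points, red where called by limma, the number of genes in brackets), with the list's median as a bar. The 3 red p200 genes lie between -0.53 and -0.45, in a family that was selected on this ratio, and the medians of the other 4 lists lie between -0.092 and 0.012.

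Of genes of cytosolic DNA sensing and the inflammasome, 34 were tested, and only Lrrfip1 was called. Over all 19225 genes 593 (3.08%) were called, so nothing about the list is read from this count. Lrrfip1, the gene of a nucleic acid binding protein, rose by 0.26 (± 0.056 SE, adjusted p = 0.0368 by limma, higher on 4 of 6 arrays). Leaving out replicate 1, 2, 5 or 6 ended that call, with adjusted p between 0.106 and 0.140, and over all 19 alternatives it was called under 7. Pycard, the adaptor that Aim2 recruits, gave -0.039, Casp1 0.018, Gsdmd 0.052, and the sensor Cgas -0.034. The median of the list was 0.012.

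Proteins of the p200 family have been reported to bind regulators of growth and transcription, and 23 such partner genes were tested. None was called by limma, 5 (21.7%) had an unadjusted p under 0.05, near the 16.7% of all genes, and the median was -0.029. Fos had the largest ratio, 0.35 ± 0.11 (SE, adjusted p = 0.123 by limma), and Jun stood at -0.20 ± 0.061 (adjusted p = 0.111). The retinoblastoma gene Rb1 and Trp53 gave 0.031 and -0.073. The count was 1 rather than 0 on the 4 arrays with matched Xist, where Fos gave 0.35 (adjusted p = 0.0183).

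The genes whose dye-adjusted ratio was most like the mean of Aim2, Ifi203, Ifi204 and Ifi205 over the 6 arrays were Trappc8 (r = 0.998), Cgref1, Kctd4, Lrrc46 and Golga3 (r = 0.991). Of 17202 genes measured on all arrays, 200 had r above 0.95. With Ifi203 and Ifi204 alone, an alternative chosen after seeing the data, the leading genes were Trim21 (r = 0.994), an interferon-inducible ubiquitin ligase gene, then Zdbf2, Clic4, Tspan33 and Herc5 (r = 0.993), and 159 genes passed 0.95. None of the first 5 was in the second 5. Pearson r compares the pattern over arrays and not its mean, so a high r does not make a gene lower with VIP. The fitted log2 ratios of the first 5, in the order named, were 0.062, -0.0086, -0.15, -0.32 and 0.038. Those of the second 5 were 0.085, 0.055, 0.048, -0.081 and 0.038. With 6 points and a fitted dye term, such r values describe these arrays only.

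The promoters of the family share a sequence that the selection did not use. RefSeq promoter windows (GRCm38.p6) of 300 bases, 250 before and 50 after the start, were matched by symbol for 12 p200 genes on chromosome 1 with 14 windows. An interferon-stimulated response element core, GAAANNGAA on either strand, was present in 10 of 14 windows and in 9 of 12 genes, against 8.56% of all 32851 windows. On the sense strand alone it was in 9 of 14 windows, against 4.48% of all. Windows of related neighbouring genes are not independent, so these shares are a description. The stretches below are those of some of the genes with the core and are shown because the letters around the core are also shared. The core is in capitals, and each stretch lies before the start, on the strand of the gene.
Ifi203: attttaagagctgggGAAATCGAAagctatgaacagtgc
Mndal: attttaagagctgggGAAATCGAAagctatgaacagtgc
Ifi211: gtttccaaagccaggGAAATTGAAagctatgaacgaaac
Ifi205: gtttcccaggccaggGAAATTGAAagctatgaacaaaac
Ifi206: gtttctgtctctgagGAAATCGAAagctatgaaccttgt
Ifi213: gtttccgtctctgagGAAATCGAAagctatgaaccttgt
Ifi207: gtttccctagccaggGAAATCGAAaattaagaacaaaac

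All 7 genes are on the minus strand. In GRCm38.p6 the stretches are at chr1:173942504-173942542 for Ifi203, chr1:173880200-173880238 for Mndal, chr1:173913060-173913098 for Ifi211 and chr1:174031866-174031904 for Ifi205. Those of Ifi206, Ifi213 and Ifi207 are at chr1:173491335-173491373, chr1:173599322-173599360 and chr1:173741827-173741865. Counted from the start, the first base of the core was at -35 in Ifi203, -36 in Mndal, -37 in Ifi211, -40 in Ifi206, -41 in Ifi207, -73 in Ifi213 and -134 in Ifi205. The stretches of Ifi203 and Mndal are identical. Ifi208 and Ifi214 also hold the core on the sense strand and are not printed. The stretch of Ifi208 is the same as that of Ifi213, while that of Ifi214 differs from it on both sides of the core. Ifi203 has a further start whose window does not hold the core.

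The core was thus present both in genes called lower with VIP (Ifi203 and Ifi211) and in genes that were not called (Ifi205, Ifi206 and Ifi207). No window was matched for Ifi204. The core was not found in the windows of Aim2, Ifi209 and Ifi202b. A gamma-activated site, TTCNNNGAA, which reads the same on both strands, was found in 1 window, that of Ifi202b, against 8.30% of all windows, and overlapped no response element core. The cyclic AMP response element TGACGTCA, also the same on both strands, was found in 0 of the 14 windows, against 1.79% of all. A match is a run of letters in this window and says nothing of binding.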

How the data were processed

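Per the file headers, each deposited array file gives the intensity of every spot and its background, read by Agilent Feature Extraction (9.5.1.1), with mm9 (NCBI37) positions. The authors' deposited value table holds log10 ratios of the same spots and served as an alternative. Signals were background-corrected by normexp (offset 50) and loess-normalized (limma 3.58.1, R 4.3.3). Control spots and spots marked as outliers were left out. A probe was kept if well above background on at least 3 of 6 arrays in either treatment and measured on 2 arrays per dye orientation, which left 27454 probes. A gene's brightest probe stood for it. The log2 ratio was fitted with a dye term, paired within arrays by the design, and a gene was called where its 2-sided p, adjusted by Benjamini-Hochberg over 19225 genes, was under 0.05. Levels are channel values after Aquantile normalization. Symbols came from RefSeq by accession (60.3% of probes). The members, gene lists and alternatives were chosen with earlier results of these data known. The text names every p200 probe, up to 4 called genes of each list or the 2 of lowest p, and a few pathway genes chosen after their values were seen (Gbp6, Ifnar1, Ifnar2, Stat2, Pycard, Casp1, Gsdmd, Cgas, Rb1 and Trp53). The fit was tested on simulated data. Precision is limited by having 6 arrays, and p-values measure the spread between pooled samples.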

Additional observations from a re-analysis of the deposited data

Results flagged for a closer look

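In 3 of 42 sets of values over 5 or 6 arrays, 1 array stood apart from the others by Dixon's criterion, which chance meets in about 1 of 20. Ifi202b, near background, had a log2 ratio of 0.16 on replicate 2, and the next value was -0.011. Jak2 had 0.36 on replicate 6, and the next value was 0.14. Olfr433 had 0.25 on replicate 4, and the next value was 0.068. No probe of Ifi203, Ifi204 or Ifi211 had such an array among its ratios.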

How the results depend on the processing

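Ifi203 and Ifi204 kept a negative ratio under all 19 alternatives, from -0.59 to -0.42 and from -0.59 to -0.41, and Ifi211 under the 15 that give a value, from -0.52 to -0.38. Leaving out 1 replicate at a time moved Ifi203 between -0.59 and -0.47 and Ifi204 between -0.59 and -0.44. The median of the p200 genes was -0.13 and became -0.31 where probes had to be well above background on all arrays and channels, since that leaves 6 genes; leaving out 1 replicate it ran from -0.22 to -0.069, and on the 4 arrays with matched Xist it was -0.055. With probes well above background on all arrays and channels, the other features of the window moved from -0.028 to -0.22, since 2 are left. On the 4 arrays with matched Xist their median was 0.080. The count of 593 called genes became 38 with processed signals, 41 with the deposited value table, 124 with no dye term, 286 with offset 10, 308 with median centring and 323 on the 4 arrays with matched Xist; the cause was not tested. Without replicate 1 it was 282, without replicate 5 247 and without replicate 6 351 (range 247 to 461). With 12 unpaired channels and so no replicate block it was 4, with 277 genes at an unadjusted p under 0.05. Dim probes (Aim2, Ifi205, Ifi202b) limit what could be seen.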
